A study of Mus musculus with 24 samples.

Results

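Muscle stem cells taken 36 h after muscle injury, labelled activated (ASC), were compared with quiescent muscle stem cells (QSC) labelled 0 h, on 12 of the 24 microRNA (miRNA) arrays of the series. The arrays were chosen by their titles, and each group had 3 replicates, each run on card A and on card B of the TaqMan rodent miRNA set, a real-time PCR array, so 6 arrays stood on each side. All cells came from male C57BL/6 mice aged 8 weeks, with no transgene, deletion or drug named for either group, and the 60 and 72 h groups were used only to estimate the spread and, for 60 h, in 1 comparison. Replicates are described as technical in the design, and the spread and p-values below therefore leave out differences between mice. The labels name no sort for either group, and whether a lower level meant fewer cells of a type or less RNA per cell cannot be told apart in bulk RNA. The cards held 584 miRNA assays, of which 259 were detected on all 3 arrays at 0 h, 314 at 36 h, 252 at both times, and 231 on none of these arrays.

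Satellite cells, the stem cells of skeletal muscle, rest outside the cell cycle until injury, and then grow, re-enter the cycle and give rise to myoblasts. A miRNA guides a silencing complex to messenger RNAs that pair with its seed, the short stretch near its 5′ end, so miRNAs with the same seed are grouped as a family. A hairpin precursor yields a guide strand and a passenger strand, which these cards mark with an asterisk. Several miRNA families are well studied in this tissue: miR-1, miR-133 and miR-206 in the muscle lineage, the clusters of miR-17 and its paralogs in cycling cells, and miR-489 and miR-31 in satellite cells.

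The sequences that matter for the results are given 5′ to 3′ from RefSeq (GRCm38.p6), with the seed, bases 2 to 8, in capitals. The first set holds both strands of the miR-31 hairpin and 2 more miRNAs with large increases, miR-223 and miR-146b.
miR-31: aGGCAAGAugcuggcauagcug
miR-31*: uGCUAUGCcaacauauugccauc
miR-223: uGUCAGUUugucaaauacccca
miR-146b: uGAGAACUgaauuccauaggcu
The guide strand of miR-31 lies at chr4:88910614-88910635 on the minus strand, miR-223 at chrX:96242884-96242905 on the plus strand, and miR-146b at chr19:46342790-46342811 on the plus strand, each within its annotated hairpin gene (Mir31, Mir223 and Mir146b).

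The miR-17 family is shown because its 6 members share a seed and all rose. Compared with miR-17, counting from 1 at the 5′ end of miR-17, miR-106a differs by U10A alone, miR-20a by C1U and C12U, and miR-20b by U10C and C12U.
miR-17: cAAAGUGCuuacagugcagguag
miR-106a: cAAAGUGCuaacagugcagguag
miR-20a: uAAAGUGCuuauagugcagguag
miR-20b: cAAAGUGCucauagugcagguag
miR-93: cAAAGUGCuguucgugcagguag
miR-106b: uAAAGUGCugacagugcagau

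The let-7 family is shown because members with nearly the same sequence gave different changes. Compared with let-7a, in positions counted from the 5′ end of let-7a, let-7c differs by A19G, let-7b by A17G and A19G, let-7e by U9G, let-7f by G12A, let-7d by U1A and U16C, and let-7g by G12U and U18C.
let-7a: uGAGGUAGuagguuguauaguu
let-7b: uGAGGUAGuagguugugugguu
let-7c: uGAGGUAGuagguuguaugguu
let-7d: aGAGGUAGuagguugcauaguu
let-7e: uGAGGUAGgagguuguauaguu
let-7f: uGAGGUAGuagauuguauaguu
let-7g: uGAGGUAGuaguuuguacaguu
let-7i: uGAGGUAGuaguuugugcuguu

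Of the miR-15/16 family, 4 members are shown, 3 that rose with U6 as the reference and miR-15a, which was detected at 36 h alone.
miR-15a: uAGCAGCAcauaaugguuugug
miR-15b: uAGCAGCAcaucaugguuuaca
miR-16: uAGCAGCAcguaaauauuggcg
miR-322: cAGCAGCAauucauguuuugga
The next pair shares a seed but moved in opposite directions, miR-192 being higher and miR-215 lower.
miR-192: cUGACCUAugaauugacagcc
miR-215: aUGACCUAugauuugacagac
The last set holds muscle miRNAs, miR-489, and miRNAs of the Dlk1-Dio3 locus that fell.
miR-206: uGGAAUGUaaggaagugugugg
miR-133b: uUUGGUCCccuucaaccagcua
miR-489: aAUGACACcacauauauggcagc
miR-433: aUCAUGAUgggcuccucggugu
miR-127: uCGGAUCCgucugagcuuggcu
miR-489 lies at chr6:3721922-3721944 on the minus strand. miR-433 lies at chr12:109591781-109591802 and miR-127 at chr12:109592888-109592909, both on the plus strand.

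Levels are given as the mean threshold cycle (Ct) of the U6 small nuclear RNA spots minus the Ct of the assay, on a log2 scale, so a level of -10 stands for a miRNA that crossed the threshold 10 cycles after U6. Levels of different assays also depend on their primers, so only the same assay is compared between groups. An assay counted as detected on an array when every spot had a Ct below 35, was tested when detected on at least 2 arrays of each group, and was called when its adjusted p was under 0.05 (limma, Benjamini-Hochberg over the 272 tested) with a change of at least 2-fold. On this rule 153 of 272 tested assays were called (56.2%), 120 higher at 36 h (44.1%) and 33 lower (12.1%). The replicates of the 2 groups did not overlap for 225 of the 272 (82.7%), and for 209 of the 252 detected on all 6 arrays (82.9%). The median SD over replicates was 0.16 at 0 h and 0.11 at 36 h. The 120 higher assays had a median change of 4.36-fold, with 66 above 4-fold and 21 above 16-fold. The 33 lower assays were changed less, by a median of 2.66-fold, with 7 above 4-fold and 2 above 16-fold, and the median over all tested assays was a log2 change of 0.82.

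**Figure D1:**
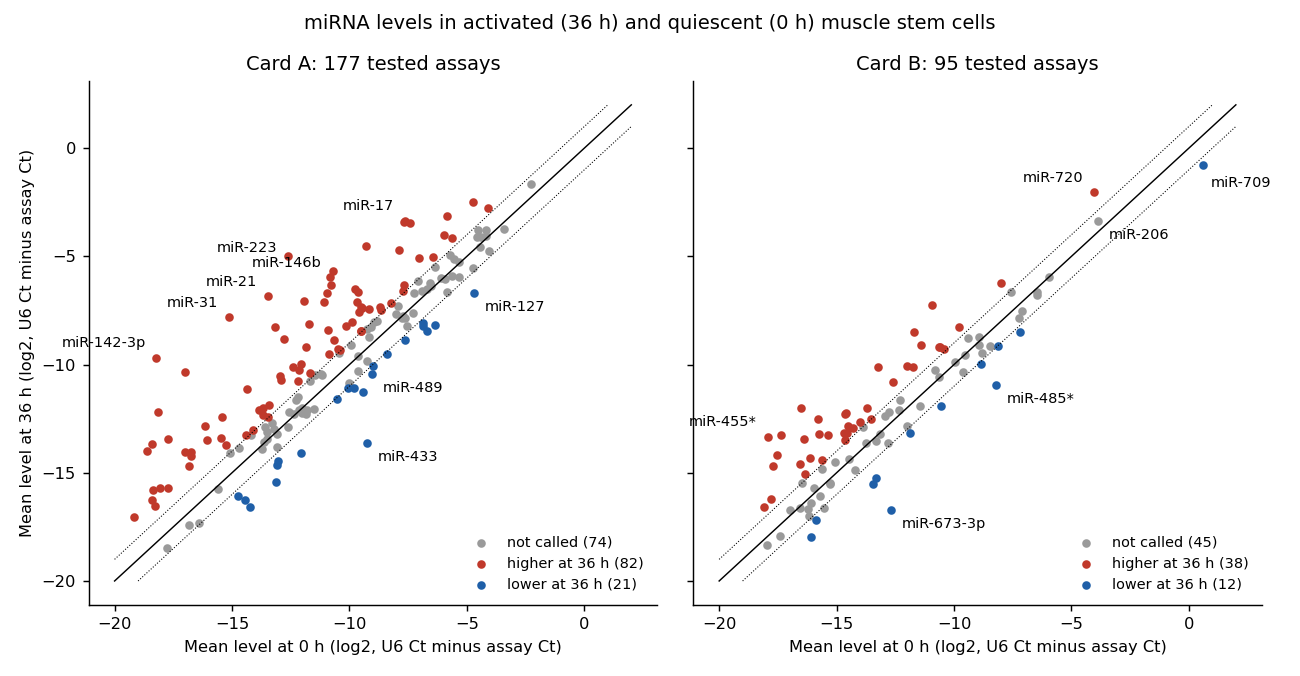
Mean level at 36 h (y axis) against 0 h (x axis) for the tested assays of card A (left) and card B (right), both in log2 units of U6 Ct minus assay Ct; the solid line marks no change and the dotted lines 2-fold. Red points (82 on card A, 38 on card B) were called higher at 36 h, blue points (21 and 12) lower, and grey points were not called.

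The direction of many smaller changes depended on the reference RNA. The mean U6 Ct was 15.34 to 15.40 on the 0 h arrays of card A and 14.86 to 14.92 at 36 h, and on card B 15.33 to 15.67 and 14.68 to 14.76. Against U6, the small nucleolar RNA snoRNA202 was lower at 36 h, with log2 changes of -0.88 ± 0.05 (card A) and -1.11 ± 0.09 (card B), whereas the Y1 RNA was higher by 0.65 ± 0.05 and 1.03 ± 0.10 (± here and below is the moderated SE of limma). Since a change of reference moves every fully detected assay of a card alike, each log2 change on card A is 0.88 larger with snoRNA202, 0.22 larger with snoRNA135, 0.15 larger with U87, 0.65 smaller with Y1 and 1.29 smaller with the mean of all detected miRNAs (global mean). On card B the shifts are 1.11, 0.35 and 0.40 upward and 1.03 and 0.78 downward, in the same order. Calls numbered 180 higher (66.2%) and 7 lower (2.57%) with snoRNA202, 68.8% of the tested assays in all. With snoRNA135 they were 139 (51.1%) and 24 (8.82%), 59.9% in all, and with U87 136 (50.0%) and 23 (8.46%), 58.5% in all. With Y1 they were 75 (27.6%) and 68 (25.0%), 52.6% in all, and with the global mean 59 (21.7%) and 89 (32.7%), 54.4% in all. With all 6 references, 54 assays were called higher and 7 lower. The 7 were miR-433, miR-673-3p, miR-485*, miR-423-5p, miR-329, miR-543 and miR-127, of which 6 belong to the Dlk1-Dio3 locus and miR-423-5p does not.

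**Figure D2:**
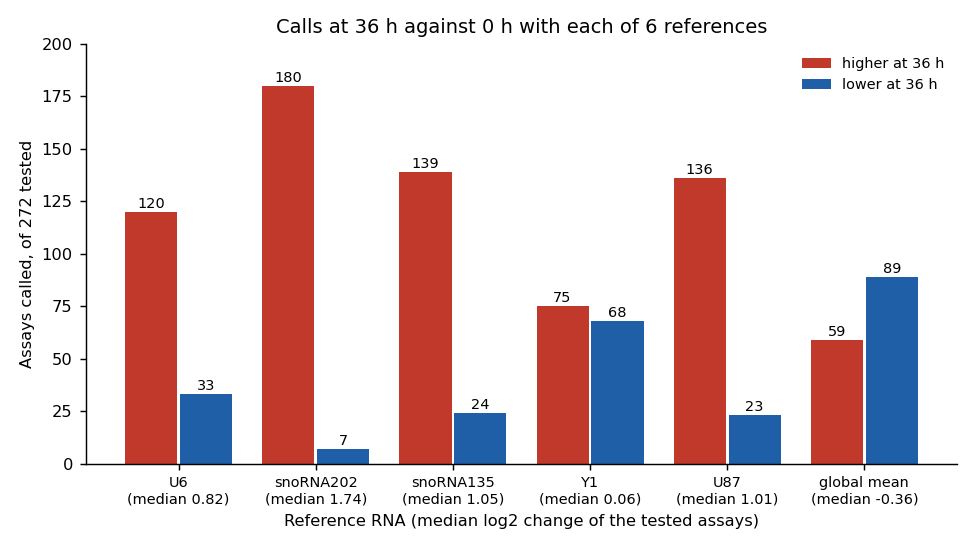
Number of assays called higher (red) and lower (blue) at 36 h, of 272 tested (y axis), with each of 6 references (x axis, with the median log2 change of all tested assays). Higher calls range from 59 with the global mean to 180 with snoRNA202, and lower calls from 7 to 89.

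Among the miRNAs of the muscle lineage, miR-133b and miR-1 changed most, and miR-206, one of the first assays to cross the threshold at 0 h, was not called. Of 9 muscle-enriched assays 5 were tested, and 4 were called higher with U6, snoRNA135, U87 and Y1, 5 when snoRNA202 was used and 2 under the global mean, where 44.1% of all tested assays were called higher with U6 and 21.7% with the global mean. Encoded beside miR-206, miR-133b had levels of -12.59, -12.71 and -13.02 at 0 h and -8.83, -8.84 and -8.76 at 36 h. The groups were far apart, and miR-133b rose 15.6-fold (log2 3.96 ± 0.11, adjusted p = 1.59e-10). miR-206, the muscle miRNA tied to regeneration, had levels of -4.06, -3.80 and -3.71 at 0 h and -3.43, -3.32 and -3.37 at 36 h, a log2 change of 0.48 ± 0.11. With snoRNA202 this change became 1.59, which was called, and it turned to -0.55 under Y1 and -0.29 under the global mean. So although all 36 h arrays were above all 0 h arrays for miR-206, the size and the sign of its change rested on the reference. miR-1, which is best known from differentiated muscle, was at -15.17, -15.09 and -15.99 at 0 h and -12.54, -12.41 and -12.38 at 36 h on the mouse assay, a rise of 7.85-fold (adjusted p = 8.49e-07). miR-133a rose 3.79-fold (log2 1.92 ± 0.07), but under the global mean its change of 0.63 was not called. miR-208, miR-486 and miR-499, miRNAs of heart and mature muscle fibres, were detected on none of these arrays.

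Most tested miRNAs of the clusters known from cycling cells were higher at 36 h. From the miR-17 cluster and related clusters 10 of 13 assays were tested, and 8 were called higher, where 44.1% of all tested assays were, with a median log2 change of 4.12 against 0.82 over all assays. The same count of 8 higher was found with Y1, U87 and the global mean, against 9 with snoRNA135 and 10 with snoRNA202. miR-20a, of the miR-17 seed family, had levels of -9.31, -9.25 and -9.37 at 0 h and -4.56, -4.43 and -4.57 at 36 h. Replicates thus lay close together while the groups were 4.79 ± 0.06 apart, a rise of 27.6-fold (adjusted p = 5.14e-13). miR-19a, from the same transcript but with another seed, was at -12.03, -12.01 and -11.78 at 0 h and -7.12, -7.06 and -7.03 at 36 h, 29.2-fold higher. All 6 assays with the miR-17 seed were called higher with each of the 6 references, with log2 changes from 2.53 for miR-106b to 4.88 for miR-20b. miR-17 and miR-106a, which differ by 1 base, gave almost the same levels, -7.59, -7.63 and -7.65 against -7.59, -7.70 and -7.78 at 0 h and -3.43, -3.34 and -3.26 against -3.46, -3.39 and -3.35 at 36 h, so the share of each in the signal is uncertain.

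Not every strand of these clusters rose. miR-92a, the last miRNA of the miR-17 transcript, was at -4.59, -4.47 and -4.52 at 0 h and -3.76, -3.81 and -3.73 at 36 h, a log2 change of 0.76 ± 0.07 that missed the 2-fold limit. miR-25, which has the same seed and lies beside miR-93 and miR-106b, had a log2 change of 0.85 ± 0.08. Both were called with snoRNA202 (1.64 and 1.72) but the global mean put them below 0 (-0.53 and -0.44), whereas miR-19b of the same transcript as miR-92a rose 15.3-fold. Also with this seed, miR-363 was read on the 3 arrays of 0 h, at -19.03, -16.96 and -17.92, and on none of 36 h. miR-18a had a Ct below 35 on 1 array at 0 h, at -18.60, and stood between -10.06 and -9.99 at 36 h.

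In the miR-15/16 family, which acts on cyclins and other cell cycle genes, 3 of 5 tested assays were called higher with U6. With Y1 and with the global mean 1 of the 5 was. The shares over all tested assays were 44.1%, 27.6% and 21.7% with these references. miR-322 changed far more than its relatives. miR-195 (log2 0.42 ± 0.06) and miR-497 (0.82 ± 0.07) were not called. miR-322, of the miR-322/503 cluster that is known from myoblasts leaving the cycle, was at -16.40, -17.75 and -16.86 at 0 h and -10.43, -10.26 and -10.41 at 36 h. The 0 h arrays spread over more than a cycle, yet all were more than 5 cycles below the 36 h arrays, and miR-322 rose 99.5-fold (log2 6.64 ± 0.28, adjusted p = 4.25e-09). miR-16, an abundant member, was at -4.07, -4.15 and -4.15 at 0 h and -2.80, -2.75 and -2.74 at 36 h, 2.57-fold higher, and miR-15b rose 2.25-fold, and neither was called with Y1 or the global mean, where miR-15b was at -0.12. miR-15a was detected on no array at 0 h and stood at -11.73, -11.89 and -11.77 at 36 h, at least 228-fold above a Ct of 35.

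The let-7 family, whose members restrain growth genes such as Hmga2 and Lin28, gave changes that differed widely among closely related assays. let-7i had levels of -11.06, -10.85 and -10.90 at 0 h and -6.74, -6.60 and -6.73 at 36 h, 19.0-fold higher, and was called with all 6 references. let-7c stood at -4.07, -4.17 and -3.91 at 0 h and -4.92, -4.68 and -4.71 at 36 h, below 0 h on every array but short of a call (log2 -0.72 ± 0.08), and let-7b behaved alike (-0.79 ± 0.10). With snoRNA202 these 2 changes were 0.16 and 0.09, and with Y1 and the global mean both were called lower. let-7g rose 2.57-fold, a call lost with Y1 and the global mean, while let-7d (log2 0.28 ± 0.07) and let-7e (0.80 ± 0.10) were not called, and turned negative with the global mean (let-7d also with Y1). Detection was also uneven: let-7a had a Ct below 35 on 1 of 3 arrays at 0 h, at -11.47, and levels of -10.09, -9.69 and -9.96 at 36 h, and let-7f was detected on none at 0 h and at -11.24, -11.28 and -11.33 at 36 h. let-7a and let-7c differ by a single base, so how far each assay read the other was not tested.

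**Figure D3:**
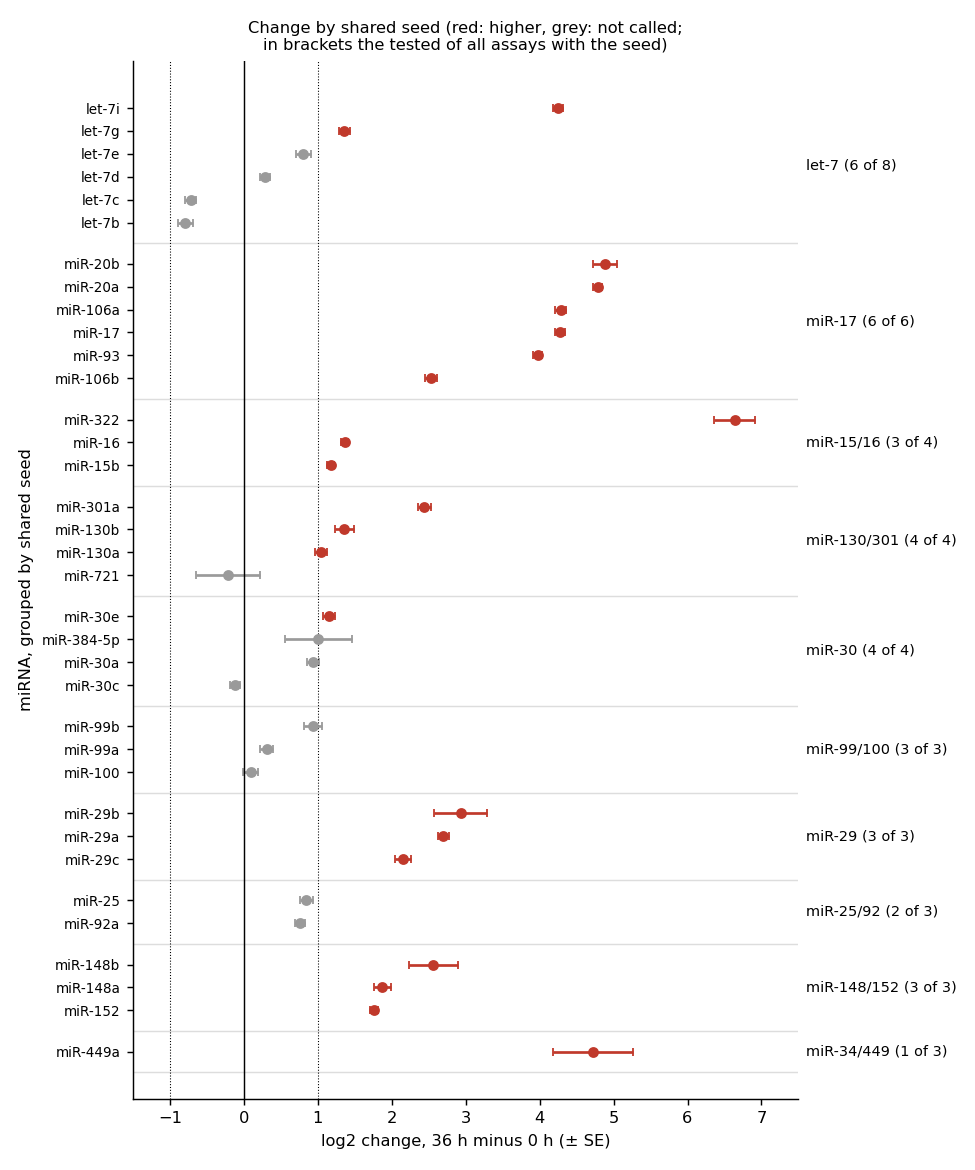
The log2 change from 0 to 36 h (x axis, points, with the moderated SE as bars) of the tested mouse assays in the 10 groups of 3 or more miRNAs that share a seed (y axis). Red points were called higher and grey points were not called; the miR-17 and miR-29 groups are red throughout, and the let-7 group runs from -0.79 for let-7b to 4.25 for let-7i.

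Taking all miRNAs matched to RefSeq by their seed, 25 seeds were shared by at least 2 detected assays, 71 assays in all. In 8 groups with at least 2 tested members every one of these was higher with U6. In 2 groups 1 member was higher and another lower. Over all tested assays 44.1% were called higher with U6 and 21.7% with the global mean. With the global mean, every tested member stayed higher in the groups of miR-17, miR-19a, miR-146a and miR-34b-3p. In the groups of miR-15b and miR-148a 1 of 3 was then called, and in that of miR-221 1 of 2. miR-29a, a regulator of collagen genes, was at -5.85, -5.76 and -5.88 at 0 h and -3.18, -3.15 and -3.05 at 36 h, and miR-29a, miR-29b and miR-29c were higher with log2 changes of 2.70, 2.93 and 2.15 (2 of 3 still called with the global mean). One split group was miR-192 and miR-215, whose sequences differ by C1A, A12U and C20A in positions of miR-192. miR-192 went from -11.76, -11.60 and -11.69 to -10.31, -10.41 and -10.37, 2.49-fold higher, and miR-215 from -14.31, -14.37 and -14.61 to -16.29, -16.02 and -16.49, 3.57-fold lower. Neither call held with every reference: miR-192 was not called with Y1 or the global mean, and miR-215 not with snoRNA202 (log2 -0.96). The other was miR-329 (log2 -2.28 ± 0.53) of the Dlk1-Dio3 locus with miR-362-3p (1.05 ± 0.12, and -0.24 with the global mean), whose call was lost without replicate 1 of 0 h (0.99).

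Several known responders to injury and growth signals were among the single miRNAs with large increases. The log2 changes of miR-142-3p (8.54) and miR-223 (7.65), described below as markers of blood and myeloid cells, were larger than that of miR-31. miR-31, which is known to hold back the myogenic factor Myf5 in satellite cells, was at -14.89, -15.13 and -15.31 at 0 h and -7.80, -7.83 and -7.85 at 36 h. It rose 156-fold (log2 7.29 ± 0.09, adjusted p = 5.14e-13). Its passenger strand miR-31*, read by a separate assay on card B, was detected on no array at 0 h. At 36 h it was at -10.46, -10.21 and -10.49, at least 532-fold above a Ct of 35. Both strands of the hairpin were thus read far higher at 36 h, for miR-31* if its missing 0 h readings stand for low levels. miR-21, which rises in many injured tissues, went from -13.51, -13.43 and -13.48 to -6.83, -6.83 and -6.90, 98.2-fold higher (adjusted p = 3.98e-14). miR-182 was at -17.69, -19.47 and -17.28 at 0 h and -12.30, -12.02 and -12.31 at 36 h, 61.4-fold higher. Without replicate 2 of 0 h its log2 change of 5.94 became 5.28, and with a detection limit of Ct 32 it could not be tested. By contrast, miR-183 and miR-96 of the same cluster were detected on none of these arrays. miR-221 and miR-222, which share a transcript and a seed and act on the cell cycle inhibitor p27, rose by log2 changes of 4.93 ± 0.08 and 1.98 ± 0.08. miR-221 was at -13.28, -13.18 and -13.07 at 0 h and -8.31, -8.24 and -8.21 at 36 h, and miR-222 went from -5.97, -5.94 and -5.99 to -4.03, -3.96 and -3.99 (log2 0.69, not called, with the global mean).

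Of the 4 assays in the injury and inflammation list, all were called higher, 3 of them with the global mean as well, against 44.1% and 21.7% of all tested assays. miR-146b, a brake on signalling through Traf6 and Irak1, had levels of -10.77, -10.69 and -10.69 at 0 h and -5.72, -5.60 and -5.69 at 36 h. Each group spread over little more than 0.1, and miR-146b rose 33.1-fold (log2 5.05 ± 0.05, adjusted p = 6.61e-14). miR-146a, with the same seed but from another chromosome, went from -9.86, -9.73 and -9.67 to -6.57, -6.35 and -6.57, 9.57-fold higher. miR-155, which is induced in activated immune cells, rose 4.05-fold, from -9.69, -9.46 and -9.60 to -7.58, -7.56 and -7.56, a call lost with the global mean.

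**Figure D4:**
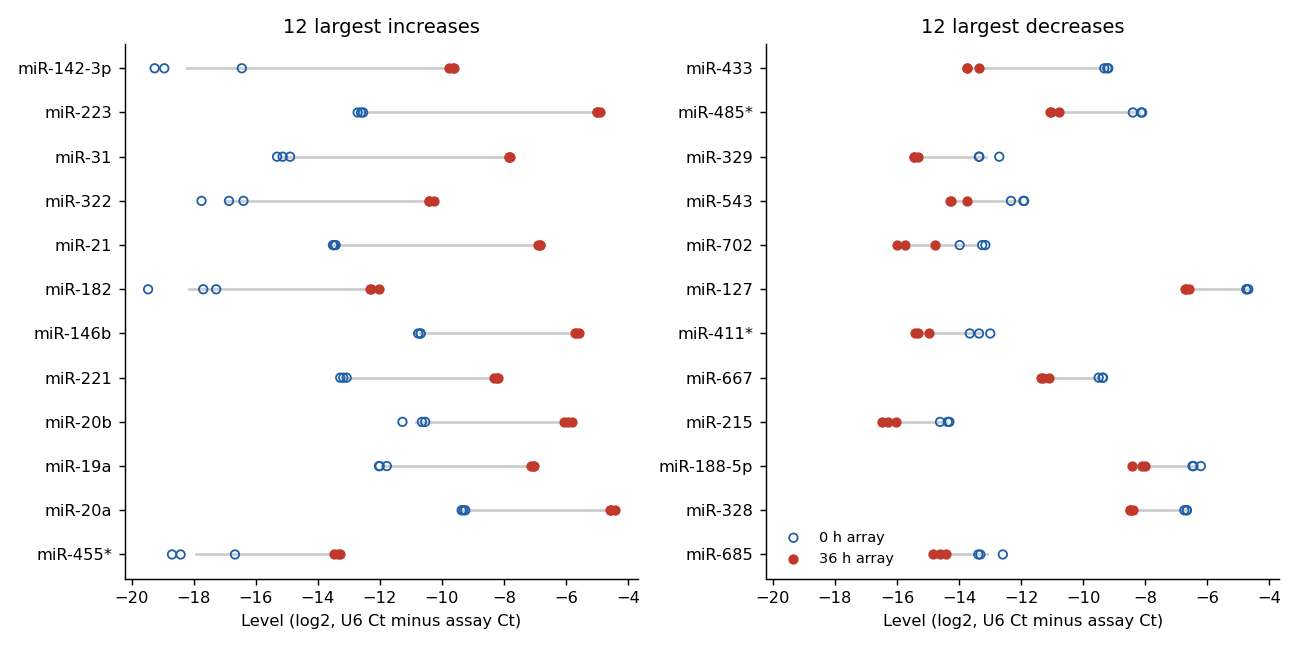
Level on each array (x axis, log2, U6 Ct minus assay Ct) of the 12 assays with the largest increases (left) and the 12 with the largest decreases (right) among called assays detected on all 6 arrays; open blue circles are 0 h arrays, red points 36 h arrays, and grey lines join the means. Groups that do not overlap were a condition for picking the 24, and miR-142-3p has the widest spread at 0 h, from -19.26 to -16.45.

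Markers of other cell types moved with the comparison, and their part in the results above was not tested. Of 6 leukocyte-enriched assays 4 were called higher (3 with the global mean), 1 was not called and 1 was detected at 36 h alone, where 44.1% of all tested assays were higher with U6 and 21.7% with the global mean. Of the 4, miR-146a and miR-155 also belong to the injury and inflammation list above. Summed over the list, the level was -5.38 to -5.34 on the 0 h arrays and -3.72 to -3.65 at 36 h (log2 of the summed ratio to U6). Such a sum adds assays with different primers, and at 0 h it was mostly miR-150 (mean -5.53), which was not called. miR-223, a marker of myeloid cells, went from -12.54, -12.61 and -12.72 to -5.02, -5.00 and -4.91, a 200-fold rise (log2 7.65 ± 0.07, adjusted p = 3.98e-14). miR-142-3p, found across blood cells, was near the detection limit at 0 h, at -19.26, -16.45 and -18.95, and at -9.61, -9.77 and -9.65 at 36 h. Its change of 373-fold (log2 8.54 ± 0.58) was the largest of all tested assays, with an imprecise base, since leaving out 1 replicate at a time gave log2 changes between 8.02 and 9.43, the latter without replicate 2 of 0 h. miR-142-5p, the other strand, was detected at 36 h alone (-16.27, -15.33 and -16.19). miR-150, a lymphocyte marker, by contrast went from -5.54, -5.51 and -5.55 to -5.15, -5.11 and -5.11, a log2 change of 0.41 ± 0.08 that was not called (1.29 under snoRNA202, which was a call, and -0.88 under the global mean).

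Both strands of miR-126, an endothelial miRNA from an intron of Egfl7, were called higher with every reference but the global mean. miR-126-3p was at -4.68, -4.71 and -4.80 at 0 h and between -2.52 and -2.50 at 36 h, 4.67-fold higher, and the summed level of both strands was -4.52 to -4.44 at 0 h and -2.29 to -2.28 at 36 h. Of 5 assays of mesenchymal and smooth muscle miRNAs 3 were higher (2 with Y1, and 2 with 1 lower with the global mean), where the shares over all tested assays were 44.1%, 27.6% and 21.7%, and the summed level was -3.23 to -3.11 at 0 h and -2.76 to -2.70 at 36 h. In that list miR-199a-3p rose from -7.93, -7.89 and -7.90 to -4.69, -4.72 and -4.72 (9.16-fold) and miR-143 from -9.66, -9.62 and -9.72 to -7.11, -7.11 and -7.07 (5.95-fold). miR-145, which is made from the same transcript as miR-143, went the other way, from -3.47, -3.34 and -3.40 to -3.69, -3.71 and -3.79, a log2 change of -0.33 ± 0.05 that was not called (0.55 with snoRNA202). At 0 h miR-145 made up most of the summed level of the mesenchymal and smooth muscle list, a sum over assays with different primers. The erythroid miR-451 was detected on no array at 0 h and at -14.07, -12.99 and -13.76 at 36 h. Of 7 epithelial assays, miR-200c and miR-205 were detected at 36 h alone, as were 7.71% of all assays, and 4 were detected on none of these arrays. The remaining one, miR-203, was tested and not called (log2 0.44, but called with snoRNA202). Their summed level was -9.22 to -9.05 at 0 h and -8.75 to -8.59 at 36 h. miR-141*, from the hairpin of the undetected miR-141, was lower with U6 (log2 -1.29 ± 0.12), though not with all 6 references. Of 5 neural, liver and endocrine assays, 3 were detected on none and miR-9 at 36 h alone (-15.93, -16.38 and -16.81).

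The 2 assays of miR-489 fell with U6. This miRNA lies in an intron of Calcr, the calcitonin receptor gene, whose product marks quiescent satellite cells. The mouse assay on card A read -9.19, -9.05 and -8.93 at 0 h and -10.55, -10.42 and -10.39 at 36 h, 2.64-fold lower (log2 -1.40 ± 0.16, adjusted p = 1.74e-05). The rat assay on card B read -10.81, -10.41 and -10.46 at 0 h and -11.92, -11.85 and -11.95 at 36 h, 2.54-fold lower (log2 -1.35 ± 0.22, adjusted p = 0.000169). Separate cards thus gave log2 changes 0.05 apart, but neither was called with snoRNA202 (-0.52 and -0.24), and the rat assay was not called with U87 (-0.95). miR-653, encoded beside miR-489, was at -14.66, -14.10 and -13.87 at 0 h and -15.03, -14.96 and -14.65 at 36 h, a log2 change of -0.67 ± 0.27 that was not called (0.44 with snoRNA202, and a call with Y1 and the global mean).

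The Dlk1-Dio3 locus, an imprinted region whose maternal chromosome expresses a long series of miRNAs, held many of the decreases. The 39 list members matched to RefSeq all lie between chr12:109563744 and 109743784. Of 59 assays, strands with an asterisk aside, 30 were tested, 12 were lower, 1 was higher and 17 were not called, where 12.1% of all tested assays were lower and 44.1% higher. The list had a median log2 change of -0.76 against 0.82 over all tested assays. Counts of lower and higher were 5 and 5 with snoRNA202, 9 and 1 with snoRNA135 and with U87, 18 and 1 with Y1, and 27 and 0 with the global mean, so the median of the list was above 0 with snoRNA202 (0.17) and below 0 with the other 5. Counting strands with an asterisk, 15 of the 33 lower assays came from hairpins of this locus and 18 from elsewhere.

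Within the locus miR-433 and miR-673-3p changed most. The levels of miR-433 were -9.32, -9.19 and -9.22 at 0 h and -13.74, -13.36 and -13.74 at 36 h, 20.7-fold lower (log2 -4.37 ± 0.12, adjusted p = 3.25e-07). miR-127, which lies just downstream and, like miR-433, opposite the Rtl1 gene, went from -4.68, -4.73 and -4.74 to -6.70, -6.60 and -6.72, 3.87-fold lower. miR-673-3p was at -12.86, -12.70 and -12.49 at 0 h and -16.99 and -16.44 on the 2 arrays with detection at 36 h, 16.3-fold lower. The passenger strand miR-485* fell 6.71-fold, from -8.40, -8.13 and -8.10 to -11.07, -11.03 and -10.77. These 4 were called lower with all 6 references.

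Among the rest of the locus, miR-667 fell 3.58-fold, from -9.50, -9.38 and -9.36 to -11.35, -11.10 and -11.31, a call lost with snoRNA202 (-0.96), while others moved little. miR-411 was at -6.61, -6.48 and -6.47 at 0 h and -6.34, -6.31 and -6.40 at 36 h (log2 0.17 ± 0.08, not called), while its passenger strand miR-411* fell 3.73-fold, a call lost with snoRNA202. miR-379 had a log2 change of -0.36 ± 0.09 and miR-410 of -0.83 ± 0.09, neither a call, and both were above 0 with snoRNA202. miR-544 was the single member called higher, with levels of -19.28, -19.56 and -18.63 at 0 h, close to the detection limit, and -16.46, -16.82 and -17.80 at 36 h, and its call was lost with the global mean.

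Outside this locus, the decreases included miRNAs with high and low levels. miR-709, whose assay had the highest level of all at both times, went from 0.43, 0.68 and 0.76 to -0.90, -0.73 and -0.74, 2.66-fold lower (log2 -1.41 ± 0.11), a call lost with snoRNA202 (-0.31). miR-328 fell 3.41-fold, from -6.74, -6.66 and -6.66 to -8.49, -8.39 and -8.49, and miR-188-5p 3.52-fold, from -6.21, -6.45 and -6.48 to -8.02, -8.12 and -8.44, and both calls were lost with snoRNA202. miR-423-5p was lower with all 6 references, at -14.09, -14.29 and -14.29 at 0 h and -16.45 and -16.71 on the 2 arrays with detection at 36 h, 5.13-fold. miR-23b was lower (log2 -1.10 ± 0.09) although miR-27b of its cluster was not called (0.32 ± 0.10), and with snoRNA202, snoRNA135 and U87 the former was not called (log2 -0.22, -0.88 and -0.95) while the latter was called higher with snoRNA202 (1.20) and turned negative with Y1. miR-702 fell 4.13-fold, from -13.98, -13.15 and -13.26 to -16.00, -14.79 and -15.74, and miR-685 fell 2.88-fold, and both calls held with every reference but snoRNA202. miR-708 and miR-676 fell 2.39-fold and 2.55-fold, and neither was called with snoRNA202.

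The ranking of assays by level changed between the times. Only assays detected on all 3 arrays of a time were ranked for that time. Of the 10 ranked assays with the highest level at 0 h (miR-709, miR-24, miR-145, miR-206, let-7c, miR-16, miR-26a, miR-195, miR-125b-5p and miR-30c), 2 were called, miR-709 lower and miR-16 higher. At 36 h the 10 were miR-709, miR-24, miR-720, miR-126-3p, miR-16, miR-29a, miR-17, miR-206, miR-106a and miR-19b, and 8 of them were called. Of all tested assays 56.2% were called. Each list was picked by its level at that time, which at 36 h favours assays that rose, so the counts are a description. Both tops shared 4 assays. miR-145, miR-26a, miR-195, miR-125b-5p and miR-30c, abundant in many tissues, were not called and had log2 changes between -0.33 and 0.42, whose sign depended on the reference. The product named miR-720, which is now regarded as a fragment of a transfer RNA, was at -4.28 and -3.80 on the 2 arrays with detection at 0 h and at -2.17, -2.02 and -1.96 at 36 h, 3.97-fold higher, a call lost with Y1. Its 0 h mean of -4.04 lay above that of let-7c (-4.05). It was missing from the 0 h ranking only because it was not detected on all 3 arrays.

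In addition, 45 of 584 assays were detected on all arrays at 36 h and on at most 1 at 0 h (7.71%), and 4 the other way round (0.685%, and 2 without replicate 1 of 36 h). For 34 of the 45 no spot at 0 h had a Ct below 35, and their bounds ran from 1.10-fold to 2364-fold with a median of 14.3-fold. The bounds take a missing reading as a Ct of 35 or more, and failed reactions were not tested. Detection at 0 h was uneven also at higher levels. There let-7a was detected on only 1 array, at -11.47, and miR-720 on only 2, with a mean of -4.04. miR-374 gave the largest bound, with levels of -8.37, -8.03 and -8.31 at 36 h, at least 2364-fold. miR-674 was at -11.97, -11.65 and -12.03 at 36 h (at least 214-fold). miR-34a, a target of p53, was at -12.02, -12.46 and -12.27 (at least 167-fold). miR-210, which is induced by hypoxia, had a Ct on 1 array at 0 h, at -15.24, and was at -11.12, -10.89 and -11.15 at 36 h, so no bound is given. At 0 h alone, miR-501-3p was at -12.27, -12.79 and -12.73, with 1 array at -14.35 at 36 h. miR-302a was at -18.53, -17.82 and -17.21 and, like miR-363, had no Ct below 35 at 36 h, bounds of at least 4.80-fold and 4.42-fold. The rat assay of miR-379* was at -15.62, -17.11 and -15.38, with 1 array at -18.81 at 36 h.

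The 2 strands of a hairpin often changed by different amounts. Of 101 hairpins with both strands named on the cards, 36 pairs were tested on both strands. With U6, in 10 both strands were higher, in 10 only the guide strand was called, in 7 only the passenger strand, and in 9 neither. Among all tested assays 56.2% were called with U6, 44.1% as higher and 12.1% as lower. No pair was lower on both strands or called in opposite directions with U6, snoRNA202, snoRNA135 or U87. With Y1, 2 pairs were lower on both strands (miR-676 and miR-877) and 2 were called in opposite directions (miR-218 and miR-467a), and with the global mean 2 (miR-411 and miR-877) and 1 (miR-467a). miR-467a had a log2 change of 3.29 with U6 and 2.64 with Y1, and miR-467a* -0.71 and -1.74 (0.40 with snoRNA202). The changes of the strands differed by a median log2 of 1.28 and lay within 1 of each other for 15 pairs (across the 36 pairs r = 0.33, a description, since the pairs share the same arrays). miR-22 gave nearly equal changes, 1.52 ± 0.16 for the guide and 1.68 ± 0.12 for the passenger. miR-21* rose 10.4-fold against 98.2-fold for miR-21, and miR-322* 4.30-fold against 99.5-fold for miR-322. The reverse was seen for miR-214*, which went from -11.85, -11.63 and -11.59 to -8.51, -8.47 and -8.50 (9.17-fold) while miR-214 rose 2.65-fold. miR-93* was not called, at -9.11, -8.86 and -8.79 at 0 h and -8.77, -8.76 and -8.68 at 36 h, although miR-93 rose 15.7-fold. For miR-24, which is made by 2 hairpins, miR-24-2* rose 8.65-fold while miR-24-1* (log2 -0.36 ± 0.61) and miR-24 itself (0.60 ± 0.06) were not called.

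**Figure D5:**
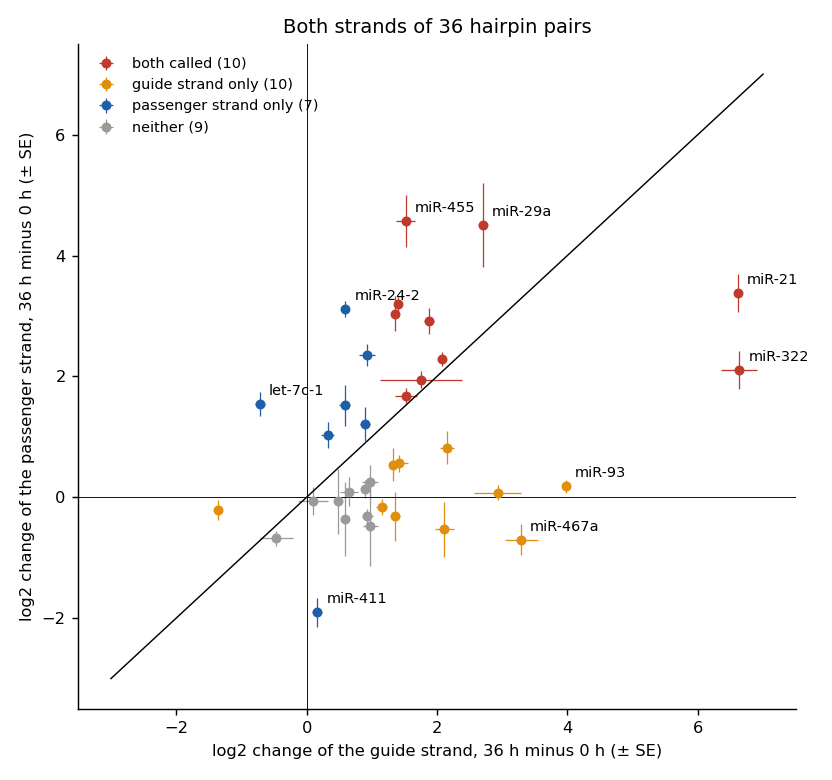
The log2 change from 0 to 36 h of the passenger strand (y axis) against that of the guide strand (x axis) for 36 hairpin pairs tested on both strands, with the moderated SE as bars and the line of equal change. Red points (10) had both strands called, orange (10) the guide alone, blue (7) the passenger alone and grey (9) neither; miR-21 and miR-322 lie far below the line, and miR-29a and miR-455 above it.

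Members of several other families were also called higher with U6. The 3 assays of the miR-148 and miR-152 family, whose targets include a DNA methyltransferase, were called higher with every reference but the global mean, under which only miR-148b was called. miR-148b was not detected on all 6 arrays, and leaving out 1 replicate at a time gave family counts of 2 to 3. miR-152 went from -9.19, -9.14 and -9.23 to -7.46, -7.44 and -7.39, 3.38-fold higher. miR-301a, of the miR-130 seed family, rose 5.43-fold and was called with all 6 references. In the miR-30 family, 1 of 5 assays, miR-30e, was called (log2 1.15 ± 0.08, and -0.14 with the global mean), where 44.1% of all tested assays were higher with U6. miR-27a rose 4.21-fold, from -9.50, -9.42 and -9.52 to -7.38, -7.44 and -7.40, whereas miR-27b, with the same seed, did not pass. miR-132, which is induced by the transcription factor CREB in neurons, rose from -10.69, -10.85 and -10.86 to -6.36, -6.28 and -6.35, 22.2-fold, and was called with all 6 references. Of 6 assays of the miR-34 and miR-449 family 2 were tested and called higher with all 6 references, and 3 were detected at 36 h alone. Over all tested assays 44.1% were higher with U6 and 21.7% with the global mean, and 7.71% of all assays were detected at 36 h alone. The count of 2 fell to 1 without replicate 2 or without replicate 3 of 0 h, and with a detection limit of Ct 32. Of 6 assays from the Hox clusters, 3 of 4 tested were higher (2 with Y1 and 1 with the global mean), against 44.1%, 27.6% and 21.7% of all tested assays, the largest change being that of miR-10b, from -12.49, -11.46 and -11.20 to -8.10, -8.12 and -8.17.

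At 0 h, several passenger strands were read where the guide was not. For 13 hairpins the guide was detected at 36 h alone, and in 9 of these the passenger strand was tested, 6 higher, 1 lower and 2 not called. Over all tested assays 44.1% were higher and 12.1% lower. Since the 13 hairpins were picked by a guide detected at 36 h alone, these counts are a description. let-7a* had levels of -10.78, -10.61 and -10.49 at 0 h and -10.58, -10.62 and -10.51 at 36 h, almost the same at both times (log2 0.06 ± 0.12), while let-7a was detected on 1 of 3 arrays at 0 h and on 3 of 3 at 36 h. miR-674* rose 2.65-fold from -10.69, -10.54 and -10.56, and miR-7a* 2.72-fold from -10.93, -10.50 and -10.47, with miR-674 undetected and miR-7a detected on 1 array at 0 h. miR-135a*, by contrast, was lower by a log2 of -1.03 ± 0.13 (not called with snoRNA135 or U87, 0.07 with snoRNA202, and not called without replicate 3 of 0 h or replicate 1 of 36 h, at -0.92 and -0.97), and miR-135a was detected at 36 h alone. For the 9 hairpins with the passenger strand detected at 36 h alone, among them miR-15b, miR-17, miR-20a, miR-31 and miR-146b, the guide was called higher in all 9, against 44.1% of all tested assays. These hairpins were picked by a strand seen only at 36 h, so the count is a description. One of them was miR-218, through miR-218-2*, and its other passenger strand miR-218-1* was not called (log2 -0.53 ± 0.45).

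Mouse and rat assays for the same miRNA name gave a check on single assays. Of 31 names carried by both species, 8 were tested on both, and all 8 pairs had the same call, with 7 pairs of the same sign and a median difference of 0.34 in log2 change. miR-7a* was higher on both (1.44 ± 0.15 and 1.65 ± 0.13), and miR-1 on both (2.97 ± 0.23 and 2.19 ± 0.07). The pair that differed in sign was miR-345-3p, with -0.56 ± 0.63 on the mouse assay and 0.91 ± 0.20 on the rat assay, both not called. The mouse assay was called without replicate 3 of 36 h (-1.14), and the rat assay without replicate 1 of 0 h (1.15) or replicate 2 of 36 h (1.02). Strands with an asterisk, all on card B, had a median log2 change of 0.89 over 58 tested assays, while the 37 other tested assays of card B had -0.18 and the 177 of card A 0.91.

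Base composition moved weakly with the change. Among the card A mouse assays tested, 138 of 169 (81.7%) had a RefSeq sequence, and the GC content of the mature miRNA had r = -0.26 and rho = -0.25 with the log2 change, a description across assays of the same arrays. The median log2 change was 1.42 over 25 miRNAs of at most 40% GC, with 60.0% called higher and 8.0% lower. Over 30 miRNAs above 55% GC it was 0.61, with 30.0% higher and 23.3% lower.

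Levels at 36 h were also compared with those at 60 h, to show which differences from 0 h belonged to the earlier time. Of 279 assays tested, 138 were higher at 36 h than at 60 h (49.5%) and 15 lower (5.38%), with 54 and 94 under snoRNA202 and 64 and 75 under the global mean. This comparison uses the same 36 h arrays as the one with 0 h. miR-223 was 3.59 above 60 h in log2 (and 7.65 above 0 h), miR-146b 3.87 (5.05), miR-143 4.66 (2.57) and miR-10b 7.99 (3.59). miR-31 was 2.65 below 60 h (7.29 above 0 h) and miR-182 2.75 below (5.94 above). For miR-489 the values were 3.45 above 60 h and 1.40 below 0 h, and for miR-127 3.05 above 60 h and 1.95 below 0 h. Each of these 8 differences from 60 h was called in the same direction with all 6 references. miR-17 and miR-21 were not called between 36 and 60 h (log2 -0.74 and 0.69), but miR-17 was called lower at 36 h with 4 of the other references and miR-21 turned negative with 3 of them.

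The authors' deposited table for card A gave a median log2 change of 0.94 over the 177 tested assays, against 0.91 here. Their value is the mean of 3 fold changes, whereas here levels were averaged in log2 and undetected values left out. Some single assays differed far more than the medians, such as miR-682 (8.97 in their table, 2.70 here) and miR-184 (8.33 and 2.14). For card B the authors' deposited table gave a median of 2.92 against 0.54 here, with 85 of 95 assays at least 2-fold higher against 38 and 1 at least 2-fold lower against 13. In the authors' deposited table for card B the dCt at 36 h equals Ct minus a constant of 16.97, which differs by 2.26 from the mean U6 Ct of 14.71, whereas the constants of card A and of card B at 0 h lay within 0.001 of the U6 mean. The difference turns the direction of several miRNAs: in the authors' deposited table the rat assay of miR-489 on card B is 1.89-fold higher and the mouse assay on card A is at a ratio of 0.38. In the authors' deposited table miR-206 is 6.70-fold higher at 36 h, against a log2 change of 0.48 here, and miR-709 1.80-fold higher, against -1.41 here. For miR-720 the log2 change is 22.1 in their table and 1.99 here, a gap far larger than 2.26.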

How the data were processed

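Total RNA of muscle stem cells was read on TaqMan Array Rodent MicroRNA cards A and B v2.0 (ABI 7900HT, 40 cycles), per the labels. The deposited values per array are Ct, an inverse log2 scale, with 40 cycles as the end of the run. The authors' deposited tables add dCt and fold change (a ratio) by group, and the software that set the thresholds is not given in the sources used here. Their 60 other per-sample columns were not used. Card type was read from the assays listed on each array.

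Ct of each assay was subtracted from the mean Ct of the 4 U6 spots of its own array. An assay was left out on an array where any of its spots had a Ct of 35 or more or no Ct. limma 3.58.1 (R 4.3.3) was fitted per card over the 12 arrays of 4 groups, with Benjamini-Hochberg adjustment over both cards, and was tested on simulated data. With 3 arrays against 3, the number of arrays limits the precision, and an exact permutation test could not go below p = 0.1. A fold called "at least" sets a Ct of 35 for the other group, where none of its spots fell below that. It is a lower bound only if the missing readings were not failed reactions, which was not tested. Alternatives were 5 other references, other detection limits, other sample sets and leaving out each replicate.

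Named assays were the 12 largest increases and 12 largest decreases among called assays detected on all arrays, with no overlap of the groups. Also named were the 8 largest detected at 36 h alone, all detected at 0 h alone and the 10 highest levels at each time. Members of the lists and a few miRNAs known from this tissue were named as well. Partner strands and species pairs were added as examples after their values were seen. The members and the lists were chosen with earlier results of these data known. Guide and passenger strands followed the asterisk in the assay names, and the arm to match in RefSeq was assigned from general knowledge where a name gives none. RefSeq (GRCm38.p6) sequences matched 231 of the 321 assays that were tested or detected in 1 group alone (72.0%).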

Additional observations from a re-analysis of the deposited data

How the results depend on the processing

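The reference decided the counts. Of the 36 h versus 0 h calls, snoRNA202 left 7 lower, Y1 gave 75 higher and 68 lower, and the global mean 59 higher and 89 lower. For 36 h versus 60 h, snoRNA202 gave 54 higher and 94 lower, the global mean 64 and 75, U87 90 and 54, and Y1 46 lower.

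Signs turned for some assays that were not called or only just called. With snoRNA202 the log2 changes became 0.046 for miR-410, 0.075 for miR-135a*, 0.086 for let-7b, 0.16 for let-7c, 0.34 for miR-345-3p, 0.40 for miR-467a*, 0.44 for miR-653, 0.52 for miR-379, 0.55 for miR-145, 0.67 for miR-24-1* and 0.76 for miR-30c, the last also 0.094 with snoRNA135 and 0.031 with U87. With Y1 they became -0.056 for miR-24, -0.21 for miR-203, -0.24 for miR-195, -0.24 for miR-150, -0.33 for miR-27b, -0.36 for miR-125b-5p, -0.37 for let-7d, -0.49 for miR-411, -0.52 for miR-26a, -0.55 for miR-206, -0.85 for miR-93* and -0.98 for let-7a*. With the global mean they became -0.12 for miR-15b, -0.14 for miR-30e, -0.24 for miR-362-3p, -0.29 for miR-206, -0.38 for the rat miR-345-3p assay, -0.44 for miR-25, -0.47 for miR-497, -0.49 for let-7e, -0.53 for miR-92a, -0.60 for miR-93*, -0.69 for miR-24, -0.72 for let-7a*, -0.85 for miR-203, -0.87 for miR-195, -0.88 for miR-150, -0.97 for miR-27b, -0.996 for miR-125b-5p, -1.01 for let-7d, -1.12 for miR-411 and -1.16 for miR-26a. Detection mattered for miR-24-1* and miR-345-3p, at 0.059 and 0.47 with a limit of 40 cycles and 0.094 and 0.37 with undetected values at Ct 35.

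Leaving out each replicate in turn gave 143 to 153 changed, 111 to 122 higher and 31 to 34 lower against 0 h, and 146 to 154, 130 to 139 and 14 to 16 against 60 h. The change of miR-24-1* then ranged from -0.68 to 0.010 and that of let-7a* from -0.022 to 0.13. Assays detected at 36 h alone ranged from 37 to 49. Those at 0 h alone ranged from 2 to 6, with 2 when replicate 1 of 36 h was left out and 2 with a detection limit of Ct 32. With the replicate number as a block, 154 assays were changed, 120 higher and 34 lower, and 1 call differed, miR-345-3p. Same-numbered arrays did not deviate together (r from -0.31 to 0.18, 1 of 6 pairs over 0.1), so the numbers do not pair the arrays.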
